A study of Mus musculus with 4 samples.

Results

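The constitutive proteasome subunits were taken here as the protein-coding genes whose symbol is Psma, Psmb, Psmc or Psmd followed by a number, without the inducible subunits Psmb8, Psmb9 and Psmb10. This gave 36 of the 55401 genes in the deposited count table, 16 of the core particle (Psma and Psmb) and 20 of the regulatory particle (Psmc and Psmd). Their RNA was measured by poly(A) RNA-seq in bone marrow-derived macrophages, cells that mature in culture from bone marrow, of C57BL/6J mice. On day 1 of culture all cells were given a CRISPR-Cas9 lentivirus (multiplicity of infection 30), and differentiation took 5 days. The virus targeted Adcy7, the gene of an adenylyl cyclase, in 2 libraries, whose columns carry the name KO3, and Rosa, a control locus, in the other 2 libraries. The labels do not say whether the libraries of a group came from separate mice or cultures, how many guides were used or what share of the cells was edited. The p-values therefore describe the spread among these 4 libraries, part of which may be technical.

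The proteasome is the protease complex that degrades proteins tagged with ubiquitin. Its core particle is a barrel in which outer rings of alpha subunits gate the entrance and inner rings of beta subunits hold the peptidase sites, and its regulatory particle binds ubiquitin chains, removes them and threads the substrate into the core with a ring of ATPases. In immune cells, macrophages included, inducible catalytic subunits can take the place of the constitutive ones, and the transcription factor Nfe2l1 is known to raise the genes of many subunits together when proteasome capacity is short.

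The members did not move together in the Adcy7-targeted libraries. Of the 35 members with enough counts to test, 10 rose, 7 fell and 18 did not pass, by the quasi-likelihood test of edgeR, with p-values adjusted by Benjamini-Hochberg across all 15832 tested genes and a threshold of 0.05. The 17 called members were 48.6% of those tested, near the 49.6% of all tested genes that passed, so the number of calls does not set the members apart. The rises, 28.6% of the members against 25.0% of all genes, and the falls, 20% against 24.6%, were near the background as well. The same shares of all genes are the background for the counts by role below, which rest on at most 8 genes each. The changes were small: no member had a fold change beyond 2, against 27.2% of all tested genes, and 6 members (17.1%), of which 5 passed the test, had a fold change beyond 1.5, against 46.3%. The median size of the log2 fold change was 0.28 for the members and 0.53 for all tested genes, and the median standard error was 0.10 and 0.16. All tested members but Psma8 lay at 20.8 CPM or more in every library. The other genes were not matched to them in level, so the smaller changes are not read as particular to the members. Members moved in different directions between roles and also within the lid, the ATPases and the beta subunits without a peptidase site. The catalytic subunits Psmb5 and Psmb6, the lid subunit Psmd8 and the assembly chaperones Psmd5, Psmd9 and Psmd10 rose, while Psma7, Psma4, Psmb1, Psmb2 and the ATPase Psmc1 fell.

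**Figure D1:**
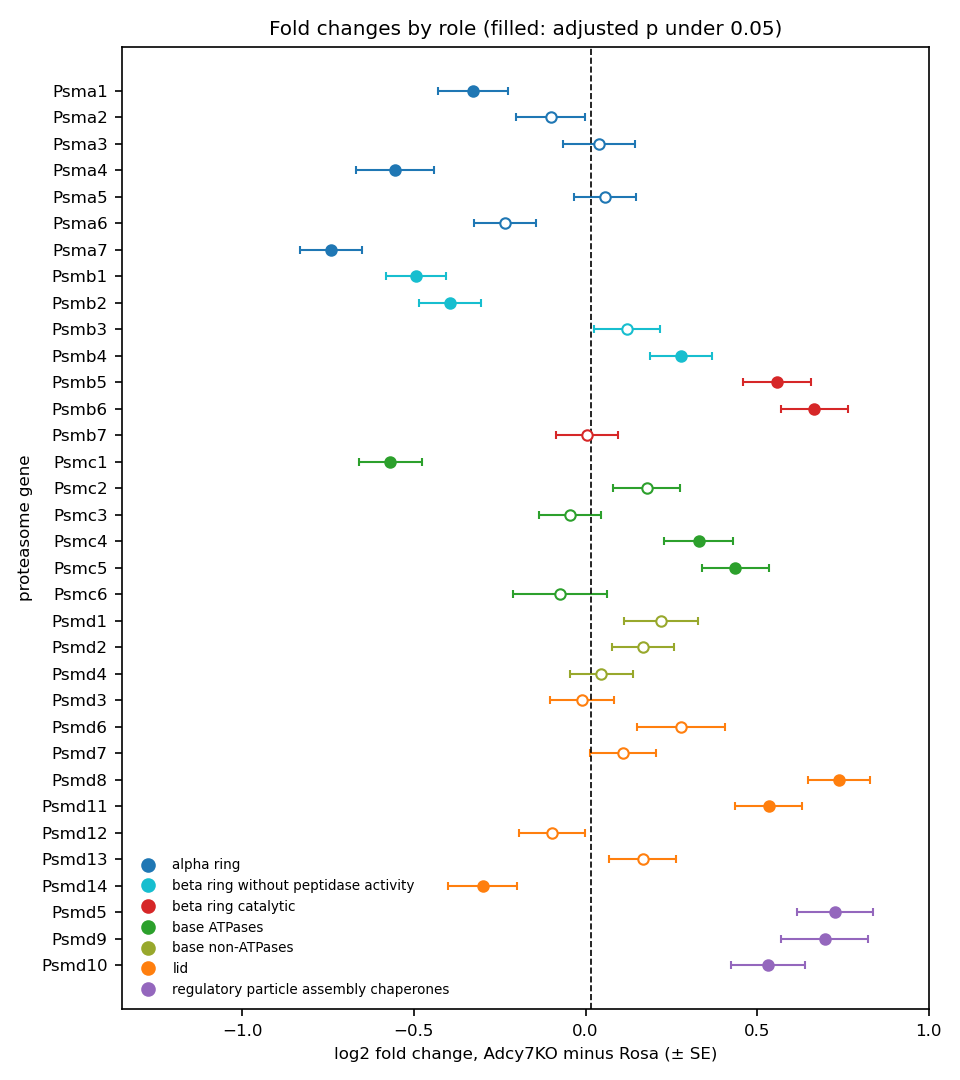
Log2 fold change of 34 tested members (without Psma8), Adcy7-targeted (Adcy7KO) minus Rosa-targeted, with bars of 1 standard error, coloured by role; filled points passed edgeR's test and the dashed line is the median of all tested genes, 0.01. Points right of 0 were higher in the Adcy7-targeted libraries, and the largest changes shown, Psma7 at -0.74 and Psmd8 at 0.74, lie on opposite sides.

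The start regions of 5 called members follow, 3 that rose and 2 that fell. They were picked because they hold different motifs and do not stand for all called members. Psmd5, Psmd8 and Psmd11, for example, rose and Psma4 fell with neither motif. Each printed region is the stretch of 250 bases before the RefSeq transcription start in build GRCm38.p6. It is given 5′ to 3′ on the gene's strand, with motif matches in capitals. The matches are TGACNNNGC (core of the antioxidant response element that Nfe2l1 and its relative Nfe2l2 bind) in Psmb5, Psmb6 and Psmd9, and CCAAT (the box bound by NF-Y) in Psma7 and Psmc1. Psmb5 lies at chr14:54617996-54618245 on the minus strand, Psmb6 at chr11:70525107-70525356 on the plus strand, Psmd9 at chr5:123227940-123228189 on the plus strand, Psma7 at chr2:180042465-180042714 on the minus strand and Psmc1 at chr12:100109952-100110201 on the plus strand.
Psmb5: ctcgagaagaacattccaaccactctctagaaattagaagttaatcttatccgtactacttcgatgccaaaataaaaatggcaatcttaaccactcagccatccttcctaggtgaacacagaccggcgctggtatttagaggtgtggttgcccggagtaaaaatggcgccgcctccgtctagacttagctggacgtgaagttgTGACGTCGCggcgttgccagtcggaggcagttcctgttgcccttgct
Psmb6: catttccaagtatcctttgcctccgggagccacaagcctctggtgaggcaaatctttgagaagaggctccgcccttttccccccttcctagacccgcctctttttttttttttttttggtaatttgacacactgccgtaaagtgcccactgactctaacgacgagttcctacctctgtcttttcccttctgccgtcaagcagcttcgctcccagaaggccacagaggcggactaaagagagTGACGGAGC
Psmd9: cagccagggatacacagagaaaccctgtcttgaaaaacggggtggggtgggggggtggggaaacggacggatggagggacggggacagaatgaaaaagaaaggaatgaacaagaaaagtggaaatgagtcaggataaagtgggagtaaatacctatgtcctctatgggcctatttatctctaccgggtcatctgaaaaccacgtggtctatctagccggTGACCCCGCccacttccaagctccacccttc
Psma7: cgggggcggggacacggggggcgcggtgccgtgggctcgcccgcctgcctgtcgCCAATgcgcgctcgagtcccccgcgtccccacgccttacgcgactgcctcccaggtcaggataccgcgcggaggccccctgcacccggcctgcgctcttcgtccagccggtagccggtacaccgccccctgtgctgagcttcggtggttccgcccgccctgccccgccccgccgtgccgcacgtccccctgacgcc
Psmc1: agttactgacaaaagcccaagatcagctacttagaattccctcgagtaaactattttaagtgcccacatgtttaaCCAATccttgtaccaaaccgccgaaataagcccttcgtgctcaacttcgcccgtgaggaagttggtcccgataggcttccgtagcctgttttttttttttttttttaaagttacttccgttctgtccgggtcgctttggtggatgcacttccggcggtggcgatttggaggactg

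Both motifs were searched on both strands in the windows of the 29 members found in the RefSeq promoter table. TGACNNNGC was present in 5 of 29 members (17.2%) and in 11.5% of the 27025 genes with a window. Among the 10 members that rose, 3 held it, the Psmb5, Psmb6 and Psmd9 matches ending 39, 1 and 23 bases before the start. None of the 5 members that fell and had a window held it (0), nor did 11 of the 13 that did not pass; the other 2 were Psmc6 and Psmd12. CCAAT was present in 12 of 29 members (41.4%) and in 37.5% of all genes. It was found in 4 of the 5 members that fell (Psma1, Psma7, Psmc1 and Psmd14, and not Psma4), in 1 of the 10 that rose (Psmd10) and in 6 of the 13 that did not pass. By particle, 7 of 12 core and 5 of 17 regulatory members held CCAAT, and 2 and 3 held TGACNNNGC. A match is a description of letters only, and no binding was measured here.

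Library totals ran from 61782358 to 71914179 counts, and a level is given below in CPM, the count scaled to a common library total. The counts are estimates, and low counts pile up at multiples of 4, so intervals from counting are not given. The targeted gene checked the labels: Adcy7 lay at 59.4 and 58.8 CPM in the Adcy7-targeted libraries and at 122 and 124.8 CPM in the Rosa-targeted ones, 48.4% of the control level (edgeR adjusted p of 4.6e-06). All 8 macrophage markers were detected in every library, but 6 of the 8 fell and 1, Cd14, rose, and Mertk, named after its values were seen, lay at only 0.278 and 0.356 CPM in the Adcy7-targeted libraries against 18.3 and 16.7 CPM in the controls. Their sum went from 57379 and 59357 CPM in the Rosa-targeted to 22979 and 22780 CPM in the Adcy7-targeted libraries, which was mostly Lyz2; without it the sums were 7021 and 7148 against 6511 and 6340.4 CPM. Markers of other marrow cells were higher: 7 of 8 tested eosinophil markers rose (summed level 32.2 to 36.1 CPM in the Rosa-targeted and 231 to 291 CPM in the Adcy7-targeted libraries), as did 10 of 10 platelet markers (191 to 208 and 371 to 422 CPM) and 2 of 5 stromal markers (2.13 to 3.04 and 43.5 to 48.6 CPM, mostly Dcn, and 1.96 to 2.63 and 8.71 to 10.6 CPM without it). The same held for 5 of 6 mast cell and basophil markers (24.2 to 31.9 and 57.5 to 58.6 CPM, with Mcpt4, Cma1 and Tpsab1 at 0), 3 of 4 erythroid markers (2.35 to 2.49 and 17.4 to 22.7 CPM, with Slc4a1 at 0) and 5 of 6 B cell markers, the other one falling (27.1 to 28.0 and 38.2 to 41.0 CPM). Of 10 neutrophil markers 1 rose and 5 fell (4771 to 5477 and 4561 to 5870 CPM), of 6 dendritic cell markers 3 rose (667 to 706 and 713 to 750.3 CPM) and of 3 T and NK cell markers none passed, a count of 0 (0.315 to 0.532 and 1.18 to 1.40 CPM, with Ncr1 at 0). For these marker counts too, the background was 25.0% of all tested genes that rose and 24.6% that fell. Some of the marker sums were mostly 1 marker. Without Cd79b, which fell, the B cell sums were 1.89 and 2.26 CPM in the Rosa-targeted and 22.5 and 23.7 CPM in the Adcy7-targeted libraries. In the same order, mast cell and basophil sums without Hdc were 2.13 and 2.09 against 27.4 and 27.5 CPM. Dendritic cell sums without Bst2 were 4.03 and 3.92 against 44.0 and 43.9 CPM. Most of that was Ccr7, named after its values were seen, at 2.17 and 2.68 against 41.1 and 41.1 CPM. The rest of the dendritic cell list lay at 1.88 CPM or less in every library. Platelet sums without Pf4 were 37.6 and 38.6 against 214 and 182 CPM. Neutrophil sums without S100a9 still overlapped. The part of these cells in the proteasome values below was not tested, and in bulk RNA fewer cells of a type and less RNA per cell cannot be told apart.

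The alpha ring fell in 3 of its 7 tested subunits and rose in none (0). Its summed level was 875 and 898 CPM in Rosa-targeted replicates 1 and 2 and 661 and 748 CPM in Adcy7-targeted replicates 1 and 2, or 79.5% of the control, and its median log2 fold change was -0.23. Both targeted sums lay below both control sums.

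Psma7, one of the alpha subunits that form the outer ring, stood at 216 and 213 CPM in the Rosa-targeted libraries and at 122 and 132 CPM in the Adcy7-targeted libraries. The groups were far apart, and the fall to 59.8% of the control was the largest among members that passed (log2 fold change -0.74, SE 0.09, edgeR adjusted p of 4.8e-05). Psma4 went from 103 and 105 to 61.9 and 78.4 CPM (log2 fold change -0.56, SE 0.11, edgeR adjusted p of 0.0019), with the Adcy7-targeted replicates further from each other than the controls. Psma1 went from 145.7 and 153.6 to 108.0 and 128.5 CPM (log2 fold change -0.33, SE 0.10, edgeR adjusted p of 0.0208). The groups of Psma1 did not overlap either, but its call was lost without either Rosa-targeted library (edgeR adjusted p of 0.0526 without replicate 1 and 0.197 without replicate 2), without Adcy7-targeted replicate 1 (0.0609) and without the low-count filter (0.0698). Psma6 was also lower in both targeted libraries, at 149 and 156 against 124 and 133 CPM, with an edgeR adjusted p of 0.0534, and passed in 5 of 12 alternatives, among them library totals in place of the composition-corrected TMM scaling (0.039) and leaving out Adcy7-targeted replicate 2 (0.0282). The remaining ring subunits Psma2, Psma3 and Psma5 had log2 fold changes of -0.10, 0.04 and 0.06 (each SE 0.09 to 0.10), so the ring's lower sum came from part of its genes. Psma3 shares 665 identical bases with the processed pseudogene Gm13835, whose count was 51.4% of that of Psma3, so the split of reads between them is uncertain. In the Adcy7-targeted pair, replicate 2 lay above replicate 1 for 7 of the 7 alpha subunits, with a median difference of 0.21 on the log2 scale.

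The beta subunits without a peptidase site were mixed. Psmb1 and Psmb2 fell, Psmb4 rose and Psmb3 did not pass, and their summed level was 706 and 705 CPM in the Rosa-targeted and 654 and 632 CPM in the Adcy7-targeted libraries, 91.2% of the control, with a median log2 fold change of -0.14. Psmb1 lay at 243 and 244 CPM in the controls and at 167 and 175 CPM after Adcy7 targeting. That difference was many times the gap between replicates (log2 fold change -0.49, SE 0.09, edgeR adjusted p of 0.000744). Psmb2 went from 148 and 140.5 to 109 and 107 CPM (log2 fold change -0.40, SE 0.09, edgeR adjusted p of 0.00385), with no overlap. Its call was lost without Rosa-targeted replicate 1 (edgeR adjusted p of 0.0571). Psmb4 went the other way, from 178 and 181 to 221 and 209 CPM (log2 fold change 0.28, SE 0.09, edgeR adjusted p of 0.0256). This smallest of the called changes did not pass without the low-count filter (edgeR adjusted p of 0.0614), without Rosa-targeted replicate 1 (0.267) or 2 (0.149), or without Adcy7-targeted replicate 1 (0.0533). Psmb3 had a log2 fold change of 0.12 (SE 0.10, edgeR adjusted p of 0.33). It did not pass with all libraries and did so without Adcy7-targeted replicate 2.

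Among the catalytic subunits 2 of 3 rose and none fell (0), and their summed level was 138% of the control, the reverse of the alpha ring. The sums were 433 and 443 CPM in the Rosa-targeted and 626 and 583 CPM in the Adcy7-targeted libraries, with a median log2 fold change of 0.56. Psmb6, which carries the caspase-like site, went from 148 and 144 to 242 and 217 CPM. Every targeted value was above every control value, a 1.59-fold rise (log2 fold change 0.67, SE 0.10, edgeR adjusted p of 0.000189). Psmb5, which carries the chymotrypsin-like site, went from 177 and 191 to 279 and 256 CPM, a 1.47-fold rise (log2 fold change 0.56, SE 0.10, edgeR adjusted p of 0.000754). The start regions of Psmb5 and Psmb6 are printed above with TGACNNNGC, and whether the motif bears on these rises was not tested. Psmb7, which carries the trypsin-like site, was at 108 and 108 CPM in the controls and at 104 and 110.3 CPM in the targeted libraries. The controls lay between the targeted replicates, and its log2 fold change was 0.00 (SE 0.09, edgeR adjusted p of 0.978). The mean log2 level of the catalytic subunits minus that of the other core members was 0.08 and 0.09 in the Rosa-targeted libraries. In the Adcy7-targeted ones the difference was 0.79 and 0.62. These levels were not divided by transcript length, so only the change between libraries is read.

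The inducible counterparts went down while Psmb5 and Psmb6 went up. Psmb9, the interferon-inducible substitute of Psmb6, fell from 111 and 94.9 to 39.2 and 42.4 CPM (log2 fold change -1.32, SE 0.11, edgeR adjusted p of 1.89e-06). Psmb8, the substitute of Psmb5, fell from 323 and 303 to 244 and 219 CPM (log2 fold change -0.42, SE 0.10, edgeR adjusted p of 0.0042). Psmb10, the substitute of Psmb7, fell from 120 and 104 to 72.8 and 64.4 CPM (log2 fold change -0.69, SE 0.11, edgeR adjusted p of 0.000343). The largest of these falls was more than that of any constitutive member.

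Within a library, the ratio of an inducible count to its constitutive counterpart does not depend on library scaling. Gene length does not cancel in it, so the ratios are compared between libraries and not between pairs. Psmb9 over Psmb6 was 0.747 and 0.657 in the Rosa-targeted and 0.162 and 0.195 in the Adcy7-targeted libraries, 25.4% of the control ratio. Psmb8 over Psmb5 was 1.83 and 1.59 in the controls and 0.874 and 0.857 in the targeted libraries, 50.8% of the control ratio. The Psmb5 count became the higher one, but as length does not cancel, this does not show which transcript was more abundant. Psmb10 over Psmb7 went from 1.11 and 0.960 to 0.698 and 0.584, 61.8% of the control ratio, and here only the inducible gene moved past the test. In all 3 pairs every targeted ratio was below every control ratio, and the differences on the log2 scale were -1.98, -0.98 and -0.69 in this order. An exact two-sided permutation test gave p = 0.333 for each, the smallest that 2 against 2 libraries allow, also after adjustment over the 3 pairs.

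**Figure D2:**
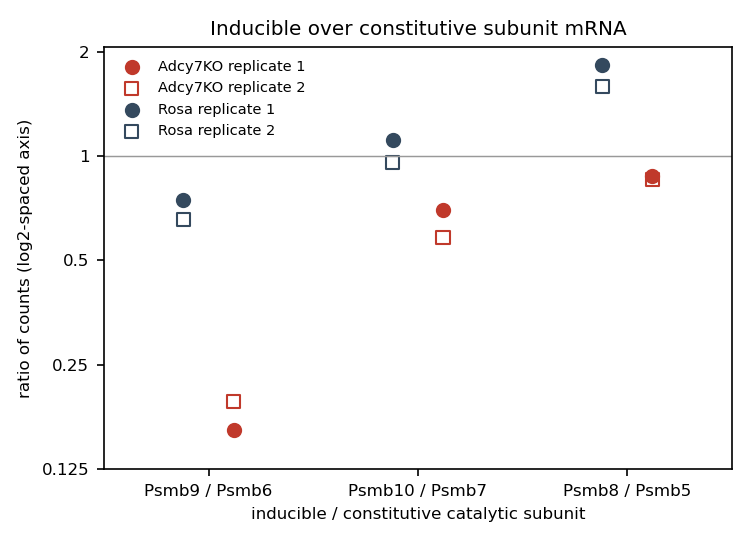
Ratio of the inducible to the constitutive count in each library (log scale), for Psmb9 over Psmb6, Psmb8 over Psmb5 and Psmb10 over Psmb7. Points are libraries; the Adcy7-targeted points lie below the Rosa-targeted points in every pair, with the widest gap for Psmb9 over Psmb6 at 25.4% of the control ratio.

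The tissue-restricted core genes were the lowest members. Psma8, an alpha subunit known from the testis, lay at 1.09 and 1.53 CPM in the Rosa-targeted and at 0.751 and 0.777 CPM in the Adcy7-targeted libraries. It was lower in both and the groups did not overlap, but it did not pass (log2 fold change -0.77, SE 0.39, edgeR adjusted p of 0.124). Psmb11, the catalytic subunit of the thymus, had 0 counts in all 4 libraries and was the member not tested; a count of 0 allows up to 3 counts, or 0.0417 to 0.0486 CPM per library, for counting error only, and 0.167 to 0.194 CPM if 1 fragment is worth 4 counts.

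**Figure D3:**
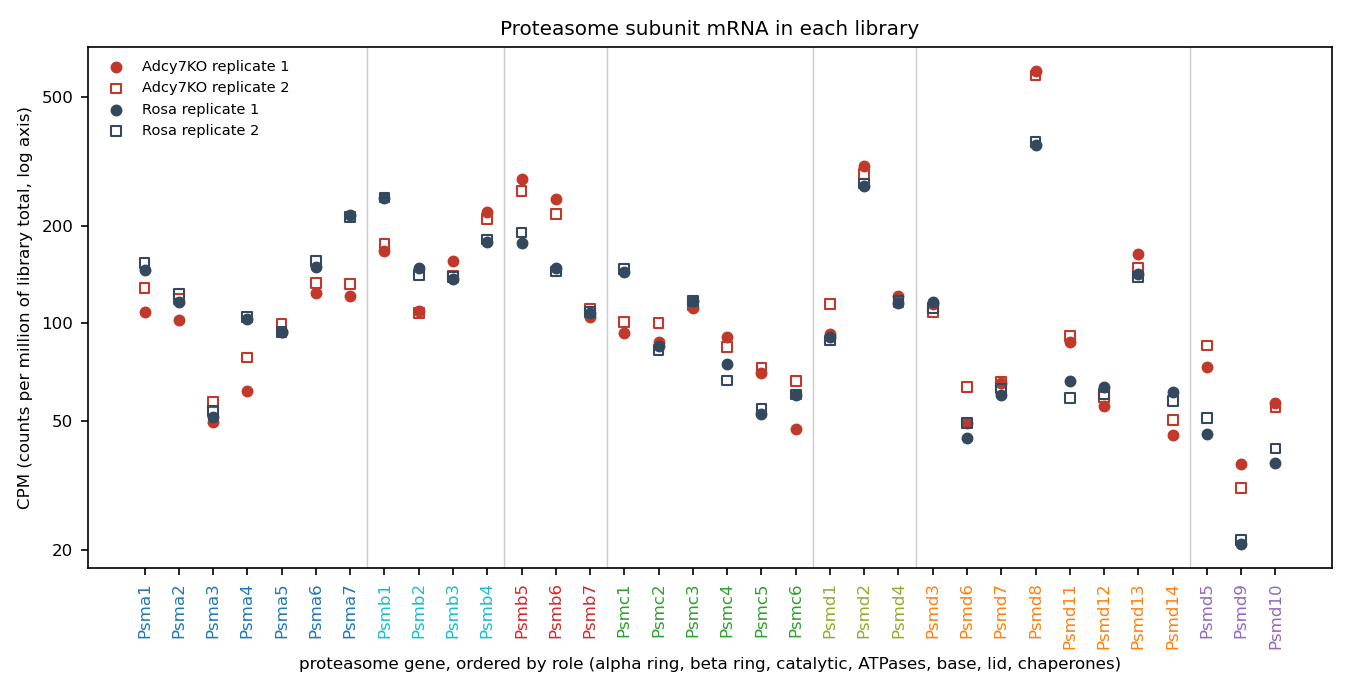
Level of 34 members (without Psma8 and Psmb11) in the 4 libraries in CPM on a log axis, ordered by role, with Adcy7-targeted libraries in red and Rosa-targeted ones in dark blue. Separation between the colours is plain for Psma7, Psmb5, Psmb6, Psmd5 and Psmd8, while for Psmb7 the controls lie between the targeted libraries.

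The ATPases of the base, which unfold the substrate and open the gate, changed in both directions. Of 6 genes 2 rose, 1 fell and 3 did not pass, counts that do not set the ATPases apart from all tested genes (25.0% rose and 24.6% fell). Their summed level was 532 and 528 CPM in the Rosa-targeted and 500.2 and 538 CPM in the Adcy7-targeted libraries, so the sums overlapped. The median log2 fold change was 0.07. Psmc1 fell from 144 and 147 to 93.4 and 101 CPM, to 67.4% of the control (log2 fold change -0.57, SE 0.09, edgeR adjusted p of 0.000392). Psmc5 rose from 52.4 and 54.5 to 70.4 and 72.8 CPM (log2 fold change 0.44, SE 0.10, edgeR adjusted p of 0.00318), and Psmc4 from 74.7 and 66.6 to 90.8 and 84.6 CPM (log2 fold change 0.33, SE 0.10, edgeR adjusted p of 0.0188). Neither pair of groups overlapped. Without Rosa-targeted replicate 1 both rises lost their call (edgeR adjusted p of 0.0738 for Psmc5 and 0.0667 for Psmc4), and Psmc4 also did so without Rosa-targeted replicate 2 (0.239) and without the low-count filter (0.0637). Psmc2, Psmc3 and Psmc6 had log2 fold changes of 0.18, -0.05 and -0.07 (SE 0.10, 0.09 and 0.14). Psmc6 was the member with the widest gap between replicates, 47.2 and 66.2 CPM in the Adcy7-targeted pair, on both sides of the controls at 59.9 and 60.3 CPM. Leaving out one Adcy7-targeted library gave opposite pictures: without replicate 1 Psmc2 passed (edgeR adjusted p of 0.0316) and the log2 fold change of Psmc6 was 0.13, and without replicate 2 Psmc6 passed as lower (-0.30, edgeR adjusted p of 0.0202).

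None of the base subunits outside the ATPase ring passed (0 of 3). The scaffold subunits Psmd2 and Psmd1 and the ubiquitin receptor Psmd4 had log2 fold changes of 0.17, 0.22 and 0.05 (SE 0.09, 0.11 and 0.09), and edgeR adjusted p of 0.147, 0.112 and 0.705. Their summed level was 472 and 475 CPM in the controls and 519.9 and 519.8 CPM in the targeted libraries. Psmd1 passed without Adcy7-targeted replicate 1 (edgeR adjusted p of 0.00649) and Psmd2 without Adcy7-targeted replicate 2 (0.028).

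The lid, which holds the deubiquitinase that strips chains from the substrate, rose in 2 of 8 subunits, fell in 1 and had 5 that did not pass, with a median log2 fold change of 0.14. Of all tested genes 25.0% rose and 24.6% fell, so these counts do not set the lid apart. Psmd8, a structural lid subunit, went from 354 and 362 to 602 and 581 CPM, a 1.67-fold rise and the largest of any member (log2 fold change 0.74, SE 0.09, edgeR adjusted p of 4.8e-05). Psmd11, another structural subunit of the lid, went from 66.1 and 58.8 to 87.3 and 91.5 CPM (log2 fold change 0.53, SE 0.10, edgeR adjusted p of 0.000933). Psmd14, the deubiquitinase itself, was lower, at 61.4 and 57.4 CPM in the controls and 45.2 and 50.3 CPM in the targeted libraries (log2 fold change -0.30, SE 0.10, edgeR adjusted p of 0.0285). The groups did not overlap for any of these genes. The call of Psmd14 was lost without either Rosa-targeted library (edgeR adjusted p of 0.221 and 0.126 without replicates 1 and 2), without Adcy7-targeted replicate 1 (0.0593) and without the low-count filter (0.0556). Psmd3, Psmd6, Psmd7, Psmd12 and Psmd13 had log2 fold changes of -0.01, 0.28, 0.11, -0.10 and 0.17 (SE 0.09 to 0.13). Of these, Psmd6 passed without Adcy7-targeted replicate 1 (edgeR adjusted p of 0.00601) and Psmd13 without Adcy7-targeted replicate 2 (0.0167). The lid's summed level rose from 907 and 902 to 1183 and 1168 CPM, 130% of the control, but Psmd8 made up most of that. Without Psmd8, left out after its values were seen, the sums were 553 and 539 CPM in the controls and 581 and 586 CPM in the targeted libraries, 107% of the control.

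The assembly chaperones of the base were the group in which every member rose (3 of 3). Psmd5, Psmd9 and Psmd10 each bind ATPases of the base while it is put together and are absent from the finished complex. Psmd5 went from 45.6 and 51.0 to 73.3 and 85.3 CPM, 1.66-fold (log2 fold change 0.73, SE 0.11, edgeR adjusted p of 0.000258). Psmd9 went from 20.8 and 21.4 to 36.6 and 30.9 CPM, 1.62-fold (log2 fold change 0.70, SE 0.13, edgeR adjusted p of 0.000905). Psmd10, also known as gankyrin, went from 37.0 and 41.1 to 56.7 and 54.9 CPM, 1.45-fold (log2 fold change 0.53, SE 0.11, edgeR adjusted p of 0.00183). In each case both targeted libraries were above both controls. Their summed level was 103 and 113 CPM in the Rosa-targeted and 167 and 171 CPM in the Adcy7-targeted libraries, 156% of the control, the highest percentage of the roles described.

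**Figure D4:**
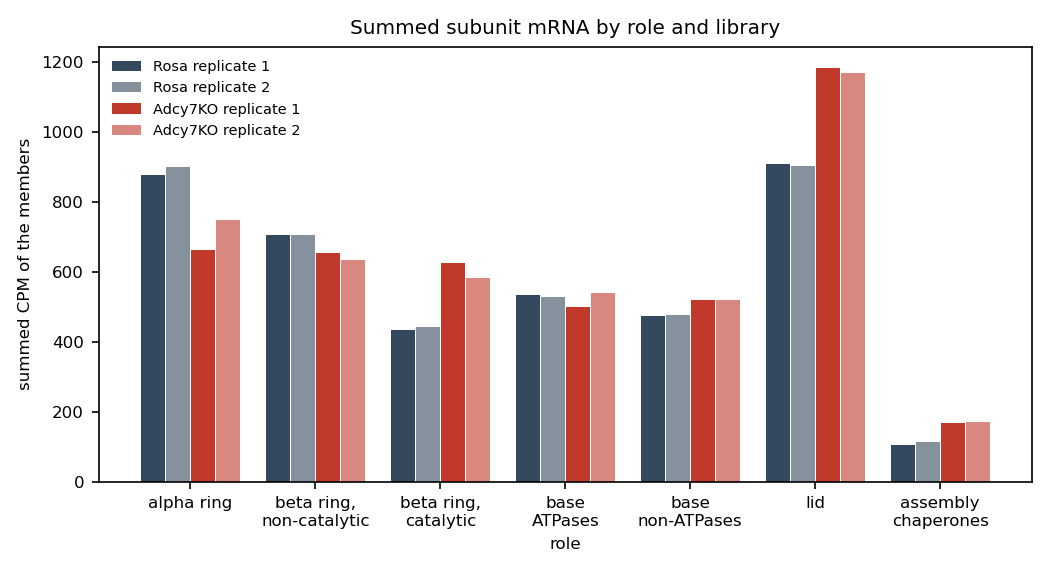
Summed CPM of the members of each role in the 4 libraries, with the axis starting at 0. The alpha ring is lower in both Adcy7-targeted libraries (661 and 748 against 875 and 898 CPM), while the catalytic subunits, the lid and the assembly chaperones are higher.

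Set side by side, the core particle leaned lower and the regulatory particle higher. Of 15 tested core members 3 rose, 5 fell and 7 did not pass, with a median log2 fold change of -0.10, and of 20 regulatory members 7 rose, 2 fell and 11 did not pass, with a median of 0.17. The median over all tested genes was 0.01. The 15 core members include Psma8, the lowest tested member in level, at a log2 fold change of -0.77 that did not pass. Without Psma8 the core median would lie between Psma2 (-0.10) and Psmb7 (0.00). The lower lean of the core and its difference from the regulatory particle therefore rest partly on this gene. Core falls (33.3%) were more and regulatory falls (10%) fewer than the 24.6% of all genes, and regulatory rises (35.0%) more and core rises (20%) fewer than the 25.0% of all genes; the shares rest on 2 to 7 genes each. Core minus regulatory median was -0.28, and between -0.33 and -0.21 with any 1 library left out. The core median itself was as near to 0 as -0.02 without Adcy7-targeted replicate 1 and -0.04 without Rosa-targeted replicate 2. Without Rosa-targeted replicate 1 the core falls numbered 3 and the regulatory falls 1, and the latter were also 1 without Rosa-targeted replicate 2, without Adcy7-targeted replicate 1 and without the low-count filter.

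In each library the mean log2 level of the 20 regulatory members was subtracted from that of 14 core members (without Psma8). The levels in this paragraph were not divided by transcript length, so only the change of a gap between libraries is read. The gap was 0.75 and 0.77 in the Rosa-targeted and 0.47 and 0.47 in the Adcy7-targeted libraries, so it was narrower in both targeted libraries by more than the replicates differed. As summed levels, the core went from 2014 and 2048 to 1942 and 1963 CPM, 96.1% of the control, and the regulatory particle from 2015 and 2018 to 2370 and 2397 CPM, 118%. All members together made up 4029 and 4066 CPM in the controls and 4311 and 4360 CPM in the targeted libraries, 107%. The difference between particles was not uniform inside them: catalytic core subunits rose, and the ATPase Psmc1 fell as far as Psma4. Within the core, the mean log2 level of the alpha subunits minus that of the beta subunits went from -0.46 and -0.42 in the controls to -0.93 and -0.69. The medians changed little without the assembly chaperones, with 0.17 for the regulatory members and -0.27 for the difference.

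The groups did not overlap for 28 of the 35 tested members (80.0%), 17 above and 11 below, against 75.2% of all tested genes, which is again near the background. Of the 17 called members, 11 kept their sign and call under every alternative computed: Psma4, Psma7, Psmb1, Psmb5, Psmb6, Psmc1, Psmd5, Psmd8, Psmd9, Psmd10 and Psmd11. The other 6 lost the call without 1 library or another, as given with their values, and 8 members that had not passed did so without 1 library. Replicates were closer in the controls. Over 34 members (without Psma8), the log2 difference between replicates ran from -0.17 (Psmd11) to 0.16 (Psmd5) in the Rosa-targeted pair and from -0.24 (Psmd9) to 0.49 (Psmc6) in the Adcy7-targeted pair, where 10 members exceeded 0.2 in size.

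Levels can be compared between genes once divided by transcript length. Here the principal transcript was used, and another choice would shift the values. In the controls the highest members in CPM per kilobase were Psma7 at 235, Psmd8 at 233, Psmb5 at 204, Psmb6 at 183 and Psmb3 at 180. After Adcy7 targeting the order was led by Psmd8 at 384, Psmb5 at 297 and Psmb6 at 288, with Psmb3 at 193, and Psma7 was the sixth at 139. The lowest, apart from the tissue-restricted genes, were the chaperones Psmd9 (8.13 in the controls and 13.0 after targeting) and Psmd5 (11.0 and 18.0). Subunits of one ring are built in at equal numbers, yet their RNA levels per kilobase were spread widely in every library. The standard deviation of the log2 level over the alpha subunits was 1.23 and 1.22 in the controls and 1.04 and 1.01 in the targeted libraries. This spread depends on the lengths used. Psma2 and Psma3 had 2911 and 2846 bases, the other alpha subunits 914 to 1239. Psma2 and Psma3 were also the lowest alpha subunits per kilobase, and the reads of Psma3 are uncertain, as given above.

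Among 39 tested genes of the wider pathway, 16 were higher, 7 were lower and 16 did not pass (41.0% higher and 17.9% lower, against 25.0% and 24.6% of all genes). The genes of transcriptional control rose in 4 of 7 and fell in none (0), with a median log2 fold change of 0.47. Nfe2l1 itself went from 208 and 207 to 325 and 308 CPM, 1.54-fold (log2 fold change 0.63, SE 0.09, edgeR adjusted p of 0.000175). The small Maf proteins, its partners on DNA, rose as well: Maff from 10.2 and 9.002 to 93.3 and 89.3 CPM, 9.63-fold (edgeR adjusted p of 4.89e-09), Mafk from 21.5 and 19.7 to 40.1 and 35.1 CPM and Mafg from 115 and 111 to 156 and 154 CPM. The related factor Nfe2l2 was at 242 and 249 CPM in the controls and 210 and 217 CPM in the targeted libraries (log2 fold change -0.19, edgeR adjusted p of 0.0989), and Ngly1 and Vcp, which act on Nfe2l1 before it enters the nucleus, did not pass.

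The ubiquitin enzymes, shuttles and other proteins that bind the proteasome rose in 8 of 13 genes and fell in 1, with a median log2 fold change of 0.38. Zfand2a, a proteasome-binding protein made under proteotoxic stress, went from 30.3 and 35.2 to 89.3 and 88.4 CPM, 2.74-fold (log2 fold change 1.45, SE 0.11, edgeR adjusted p of 1.38e-06). Zfand5, a proteasome activator, went from 89.3 and 85.2 to 156 and 163 CPM, 1.85-fold (edgeR adjusted p of 1.26e-05). Ecpas, a scaffold that holds the core and regulatory particles together, went from 64.2 and 64.2 to 91.1 and 101 CPM (log2 fold change 0.60, edgeR adjusted p of 0.000383), and the shuttle Ubqln2 rose by 0.50. For each of these genes every targeted value was above every control value. Of the others, Ubqln4 (0.46), Txnl1 (0.41), Rad23b (0.38) and Ube3c (0.35) rose and Akirin2 (-0.34) fell, on the log2 scale, with calls that did not survive leaving out Rosa-targeted replicate 1 (edgeR adjusted p between 0.0511 for Ubqln4 and 0.339 for Ube3c).

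Activators, the inhibitor and the core assembly chaperones, 10 genes in all, mostly did not pass. Psme1, a subunit of the interferon-inducible activator, fell from 217 and 204 to 125.01 and 110.5 CPM (log2 fold change -0.82, SE 0.10, edgeR adjusted p of 5.25e-05). Psme3, of the nuclear activator, rose from 74.6 and 67.8 to 87.9 and 93.4 CPM (log2 fold change 0.36, SE 0.10, edgeR adjusted p of 0.00852), a call lost without Rosa-targeted replicate 1 (0.0514) or 2 (0.158). Psme2, Psme4 and the inhibitor Psmf1 did not pass. Of the 5 core assembly chaperones only Pomp, which helps the beta subunits mature, moved past the test, and it fell from 88.4 and 92.6 to 66.3 and 75.1 CPM (log2 fold change -0.34, SE 0.10, edgeR adjusted p of 0.0141), again lost without Rosa-targeted replicate 1 (0.0505) or 2 (0.169). The ubiquitin receptor Adrm1 rose from 70.2 and 63.1 to 96.6 and 82.6 CPM (log2 fold change 0.45, SE 0.11, edgeR adjusted p of 0.00668, and 0.0778 without Rosa-targeted replicate 2), and the small lid subunit Sem1 did not pass.

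Genes of ubiquitin and its activating enzymes were mixed: of 4 genes 2 rose, 1 fell and 1, Uba1, did not pass, with a median log2 fold change of 0.32. Ubb, a gene of repeated ubiquitin units, rose from 1457 and 1408 to 1923 and 2005 CPM (log2 fold change 0.47, SE 0.09, edgeR adjusted p of 0.00124), and Uba6, an activating enzyme, rose by 0.72 (SE 0.17, edgeR adjusted p of 0.00553, and 0.0561 without the low-count filter). Rps27a, which makes ubiquitin fused to a ribosomal protein, fell from 669 and 719 to 408 and 415 CPM (log2 fold change -0.74, SE 0.09, edgeR adjusted p of 5.66e-05). In all, 14 of the 23 called pathway genes kept sign and call under every alternative: Psmb8, Psmb9, Psmb10, Psme1, Ecpas, Ubqln2, Zfand2a, Zfand5, Nfe2l1, Mafg, Maff, Mafk, Ubb and Rps27a.

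Some members share sequence or position with other genes. A search for genes with at least 95% identity over at least 200 bases found 15 genes similar to 9 of the 36 members; apart from the copy of Psma3, each had fewer than 7% as many counts as its member, with 6.65% and 5.75% for the copies of Psma5 and 1.46% for that of Psmb5. On the opposite strand, Psmb7 overlaps Nek6, Psmc3 overlaps Slc39a13, Psmd1 overlaps Htr2b and Psmd13 overlaps Sirt3. Nek6 rose from 38.5 and 36.3 to 63.2 and 65.1 CPM, Htr2b from 1.28 and 0.887 to 4.09 and 5.81 CPM and Sirt3 by 0.42 on the log2 scale, and Slc39a13 fell by 0.36. The labels do not say whether reads were counted by strand, so reads of these pairs cannot be told apart. None of these 4 members passed the test (0). Of the called members, Psma4 overlaps AY074887 on the opposite strand, which had 0 counts in all 4 libraries, and Psmd9 overlaps the noncoding RNA Gm26745, which was not analysed here.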

How the data were processed

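The authors deposited an estimated count for each Ensembl gene, a whole number that the values do not show to be scaled. The submitters' processing notes list HISAT2, StringTie, fastp and edgeR with build GRCm39; versions, settings and strandedness were not stated in these sources. Among low counts, 30.54% to 32.17% per library were multiples of 4, against 25% for no step, so counts may stand for fewer fragments. Knockout columns named KO3 were matched to titles by KO and replicate number.

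Symbols came from GRCm38 (55141 of 55401 IDs matched). Counts were filtered with filterByExpr (15832 genes), scaled by TMM, and fitted in edgeR 4.0.16 (R 4.3.3) with the quasi-likelihood test on 2 residual degrees of freedom; p-values were adjusted by Benjamini-Hochberg across these genes (threshold 0.05). CPM use deposited totals; role scores per library use TMM-scaled CPM. Alternatives were other scalings, DESeq2 1.42.0, other filters, a replicate block, counts divided by 4, leaving out each library and, chosen after seeing the data, edgeR's earlier deviance. Similar genes were found with BLAST 2.17.0, and lengths are of principal transcripts. Promoter windows are from RefSeq (GRCm38.p6). The rule named all members, all genes of the pathway lists (3 are not reported here) and, of the marker lists, members at 0. Members and lists were chosen with earlier results of these data known. Paaf1, a listed assembly factor, had no value here.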

Additional observations from a re-analysis of the deposited data

How the results depend on the processing

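Direction and call of most members held under 12 alternatives: of 420 member values, 17 lost a call, 13 gained one and 9 changed sign. None of the sign changes (0) was in a member that passed in either fit. The log2 fold change of Psmb7 was -0.0111 with library totals only and -0.0062 without the low-count filter. With 1 library left out it ran from -0.0231 to 0.0237 for Psmb7, from -0.0338 to 0.1204 for Psma3, from -0.3031 to 0.1341 for Psmc6, from -0.0752 to 0.0607 for Psmd3 and from -0.0049 to 0.1066 for Psmd4. Of the pathway genes, Usp14 was at 0.0049 with DESeq2 size factors and with the Wald test of DESeq2, at 0.0055 with counts divided by 4, and at -0.0166 to 0.0129 with 1 library left out. The same ranges were -0.2526 to 0.0252 for Psmg3, -0.0511 to 0.1588 for Psmf1 and -0.21 to 0.091 for Ngly1.

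With 1 library left out, 7 to 13 members rose and 4 to 9 fell, 2 to 4 core members rose and 3 to 6 fell, and 5 to 10 regulatory members rose and 1 to 3 fell. The core median ran from -0.1781 to -0.0196, the regulatory median from 0.1254 to 0.195 and the core minus regulatory median from -0.3332 to -0.2146. The difference in the log2 ratio ran from -1.0794 to -0.8756 for Psmb8/Psmb5, from -2.1159 to -1.8428 for Psmb9/Psmb6 and from -0.8237 to -0.566 for Psmb10/Psmb7. Without the low-count filter 1 regulatory member fell, and 8 members rose and 5 fell in all. A lone library left in a group is assumed to vary like the other group. The cause of these changes was not tested. The labels state no pairing of replicates of the same number. The correlation of their deviations across genes was 0.015. With 2 libraries a group the 2 pairs mirror each other, so this value cannot exclude shared mice or cultures. With a replicate block 11 members rose and 8 fell, and Psma6 (edgeR adjusted p of 0.0424) and Psmd6 (0.0399) passed. The Wald test of DESeq2 called 10 higher and 8 lower. No scaling moved the median of all genes by over 0.1 on the log2 scale. With 2 libraries a group and 2 residual degrees of freedom, a p above the threshold does not show that a member did not change.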
